A study of Mus musculus with 6 samples.

Results

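The insulin-like growth factor (IGF) axis was followed in fibroblasts of the pubertal mouse mammary gland through 10 genes taken by name. These were the ligand genes *Igf1* and *Igf2*, the receptor genes *Igf1r* and *Igf2r*, and the binding protein genes *Igfbp2*, *Igfbp3*, *Igfbp4*, *Igfbp5*, *Igfbp6* and *Igfbp7*. All 10 were among the 27179 genes of the count table, and all 10 were among the 15219 genes that passed the filter on low counts and were tested. RNA was sequenced from CD34hi and CD34lo fibroblasts, which were sorted from the same pools of mice as Lin-CD24-Pdgfrα+ cells, that is, cells depleted of blood and endothelial lineages, without the epithelial surface protein CD24 and with the receptor PDGFRα. The animals were pubertal FVB/N mice, at 6 weeks of age by the study's methods, and the labels give no allele, transgene or treatment for either population. Each of the 3 pools combined 2 mice and gave 1 library of each population, so that 3 CD34hi and 3 CD34lo libraries were compared.

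IGF1 and IGF2 are secreted peptides that act mainly through the receptor tyrosine kinase IGF1R. IGF2R, which is also the cation-independent mannose 6-phosphate receptor, takes up IGF2 for breakdown in lysosomes. The IGF binding proteins (IGFBPs) hold secreted IGFs, can block or prolong their action, and are themselves cut by proteases. In the pubertal gland, growth hormone acts on the stroma, and stromal IGF1 is known for its part in the growth of the epithelial ducts.

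The total count per library ranged from 28764779 to 52402410, and 3 counts, taken as the smallest amount a library could show, were 0.0572 to 0.104 counts per 1e+06 (CPM), a limit that covers counting error only. Levels are given as CPM on library sizes scaled by edgeR's TMM method, and as RPKM (that CPM per 1000 bases of exon) where genes are compared with each other. Differences are log2 fold changes of CD34hi vs CD34lo with their standard errors (SE), so that a negative value means a higher level in CD34lo fibroblasts. P-values come from a quasi-likelihood test (edgeR) without a term for the mouse pool, so that the libraries of a pool were not paired. They were adjusted over all tested genes by the Benjamini-Hochberg (BH) method. A gene passed at an adjusted p under 0.05. The replicates are separate pools of mice, and an exact permutation test of 3 libraries against 3 cannot go below p = 0.1. The summed level of 6 fibroblast markers was 28566 to 36110 CPM in CD34hi and 49214 to 54721 CPM in CD34lo libraries, and 5 of the 6 were higher in CD34lo (*Lum*, *Pdgfra*, *Pdgfrb*, *Col1a1* and *Col1a2*, but not *Dcn*). This list leaves out *Igfbp5*, which the study also lists as a fibroblast marker and which is a member here, and adds *Col1a1* and *Pdgfrb* to the study's markers. The summed level of 6 epithelial markers was 34.2 to 38.4 CPM in CD34hi and 32.6 to 41.5 CPM in CD34lo libraries. Among them, *Itga6* was higher in CD34lo (2.59 against 6.22 CPM, edgeR BH-adjusted p = 0.00817), and the other 5 did not pass. Thus the defining fibroblast genes were present in both populations. The summed level of 4 muscle markers was 1.27 to 1.57 CPM in CD34hi and 3.5 to 3.88 CPM in CD34lo libraries. That of 4 adipocyte markers was 0.179 to 0.69 CPM in CD34hi and 0.482 to 1.81 CPM in CD34lo libraries. Of those that could be tested, *Des* and *Plin1* were higher in CD34lo and *Acta1* did not pass. *Cd34*, the gene of the protein used for the sort, had a mean of 2571 CPM in CD34hi and 634 CPM in CD34lo fibroblasts. In bulk RNA, fewer cells of a type and less RNA per cell cannot be told apart.

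Both ligand genes, *Igf1* and *Igf2*, and the binding protein genes *Igfbp2* and *Igfbp7* were higher in CD34lo fibroblasts, whereas *Igfbp5* and *Igfbp6* were higher in CD34hi fibroblasts. The receptor genes *Igf1r* and *Igf2r* and the binding protein genes *Igfbp3* and *Igfbp4* did not pass this test, which did not pair the libraries of a pool. Hence 6 of the 10 members passed, 2 higher in CD34hi and 4 higher in CD34lo. Over all tested genes, 35.6% passed, 16.9% higher in CD34hi and 18.7% higher in CD34lo. When the mouse pool was fitted as a replicate block, *Igfbp3* also passed as higher in CD34lo (edgeR BH-adjusted p = 0.00178). With this block, 7 members and 6161 of all tested genes passed. The median log2 fold change was -0.53 over the 10 members and -0.01 over all tested genes. The levels of the populations did not overlap for 7 of the 10 members, and for 50.1% of all tested genes. The 5 fibroblast markers that passed had the direction of the 4 members higher in CD34lo, whereas *Igfbp5*, which the study counts among fibroblast markers, had the opposite direction. The part of the fibroblast markers in these differences was not tested.

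**Figure D1:**
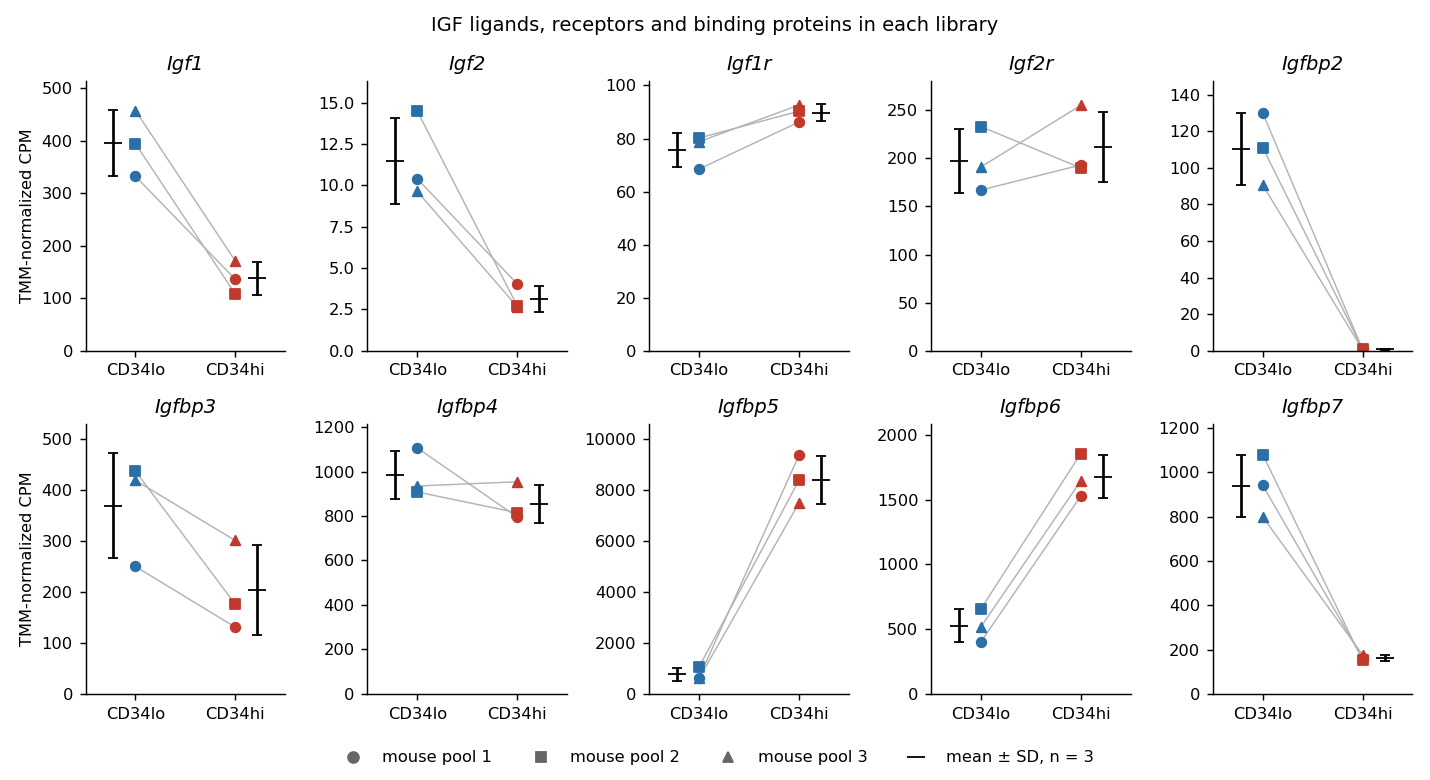
Level of each of the 10 genes in each library, as TMM-normalized CPM on a linear axis from 0, with 1 panel per gene. Points are libraries (blue, CD34lo; red, CD34hi), their shape gives the mouse pool, grey lines join the libraries of the same pool, and black bars are the mean ± SD (n = 3). The populations overlap for *Igf2r*, *Igfbp3* and *Igfbp4* and are apart for the other genes, and *Igfbp2* lies between 0.507 and 1.02 CPM in CD34hi and between 90.6 and 130 CPM in CD34lo libraries.

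*Igf1* (gene 16000, GRCm38/mm10 chromosome 10, 87859056 to 87937047, plus strand, 7817 bases of exon) encodes the ligand that carries much of the action of growth hormone. It had 136, 108 and 171 CPM in the CD34hi libraries of pools 1, 2 and 3, and 332, 394 and 457 CPM in the CD34lo libraries of the same pools. The lowest CD34lo library was thus above the highest CD34hi library. The means were 138 ± 31.7 CPM in CD34hi and 395 ± 62.6 CPM in CD34lo fibroblasts (SD, n = 3), a 2.85-fold higher level in CD34lo with a log2 fold change of -1.51 (SE 0.19, edgeR BH-adjusted p = 0.000432). Within the pools, the log2 ratios were -1.29, -1.87 and -1.42. Macrophages, another known source of IGF1, were followed through 6 markers, whose summed level was 2.93 to 3.22 CPM in CD34hi and 27.7 to 48.8 CPM in CD34lo libraries. Most of the CD34lo sum was *Fcgr2b*, at 23.6 to 43.4 CPM, which passed as higher in CD34lo. *Cd68* (2.04 against 3.32 CPM, edgeR BH-adjusted p = 0.0563) and *Fcgr1* (0.21 against 0.249 CPM, edgeR BH-adjusted p = 0.93) did not pass. The defining markers *C1qa*, *Cd163* and *Ptprc* were too low to be tested, and *C1qa* reached at most 1.61 CPM. The part of such cells in the level of *Igf1* was not tested.

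*Igf2* (gene 16002, chromosome 7, 142650768 to 142661035, minus strand, 4236 bases of exon) encodes the fetal growth factor IGF2 and is an imprinted gene. It was detected in all libraries at low counts, with 181, 99 and 121 counts in CD34hi and 565, 403 and 300 counts in CD34lo libraries. On the normalized scale these were 4.05, 2.73 and 2.67 CPM against 10.4, 14.5 and 9.64 CPM, again without overlap. The means were 3.15 ± 0.778 CPM in CD34hi and 11.5 ± 2.6 CPM in CD34lo (SD, n = 3), a 3.64-fold higher level in CD34lo with a log2 fold change of -1.87 (SE 0.24, edgeR BH-adjusted p = 0.000398). The direction was the same in all 3 pools, with log2 ratios of -1.36, -2.41 and -1.85. Per length, *Igf1* exceeded *Igf2* by a ratio of 24.8 ± 8.82 in CD34hi and 19.2 ± 5.73 in CD34lo libraries (SD, n = 3), and these ratios overlapped between the populations. The noncoding gene *H19*, the imprinted neighbour of *Igf2* at a distance of 72621 bases, had a log2 fold change of -0.66 (SE 0.23, edgeR BH-adjusted p = 0.0547), and -0.72 when the mouse pool was fitted as a replicate block (edgeR BH-adjusted p = 0.0149). The antisense gene *Igf2os*, which overlaps *Igf2* by 1343 bases, had 7 counts over all libraries against 1669 for *Igf2*.

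Neither receptor gene passed the test. *Igf1r* (gene 16001, chromosome 7, 67952257 to 68233667, plus strand, 11978 bases of exon), the gene of the signalling receptor, had 86.2, 90.3 and 92.6 CPM in CD34hi and 68.5, 80.2 and 78.8 CPM in CD34lo libraries. The populations did not overlap, and the means were 89.7 ± 3.22 and 75.8 ± 6.42 CPM (SD, n = 3). The log2 fold change of *Igf1r* was 0.24 (SE 0.11, edgeR BH-adjusted p = 0.117), with a 95% interval of -0.01 to 0.49. *Igf2r* (gene 16004, chromosome 17, 12682406 to 12769706, minus strand, 8929 bases of exon) had 193, 190 and 255 CPM in CD34hi and 167, 233 and 191 CPM in CD34lo libraries, which overlapped. Its log2 fold change was 0.11 (SE 0.17, edgeR BH-adjusted p = 0.664), with a 95% interval of -0.28 to 0.49, and pool 2 differed in sign from the others (0.20, -0.30 and 0.41). The direction of *Igf2r* thus rested on pool 3, and without the CD34hi library of that pool the log2 fold change was -0.04. *Airn*, a noncoding gene antisense to *Igf2r*, had 1531 counts over all libraries against 48523 for *Igf2r*, and reads from the 2 genes cannot be told apart where they overlap, since the library kit does not mark strand. Apart from *Polr2b* at the *Igfbp7* locus, the other genes of the table that overlap a member had between 0 counts (*Mir483*, within *Igf2*) and 103 counts over all libraries. Per length, the ratio of *Igf2r* to *Igf1r* was 3.17 ± 0.461 in CD34hi and 3.48 ± 0.361 in CD34lo libraries (SD, n = 3), with overlap. The ratio of *Igf1* to *Igf1r* was 2.36 ± 0.503 in CD34hi and 7.95 ± 0.812 in CD34lo libraries, without overlap.

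The binding protein genes held both the member with the highest level in CD34hi fibroblasts, *Igfbp5*, and the member with the largest log2 fold change, *Igfbp2*. These genes are neighbours on chromosome 1. *Igfbp2* (gene 16008, 72824480 to 72852474, plus strand, 1330 bases of exon) and *Igfbp5* (gene 16011, 72858065 to 72874865, minus strand, 5854 bases of exon) lie 5590 bases apart with their 3′ ends facing each other. The upstream sequences of the 4 binding protein genes that passed the test are shown because these genes moved in opposite directions, in pairs. Each is the 250 bases before the transcription start in RefSeq (GRCm38.p6), 5′ to 3′ on the strand of the gene, at chr1:72824230-72824479 for *Igfbp2* (plus), chr5:77408046-77408295 for *Igfbp7* (minus), chr1:72874866-72875115 for *Igfbp5* (minus) and chr15:102143936-102144185 for *Igfbp6* (plus). Capitals mark 3 motifs searched on both strands, the GC box (GGGCGG), the CCAAT box (CCAAT) and the TATA box (TATAAA).
Igfbp2: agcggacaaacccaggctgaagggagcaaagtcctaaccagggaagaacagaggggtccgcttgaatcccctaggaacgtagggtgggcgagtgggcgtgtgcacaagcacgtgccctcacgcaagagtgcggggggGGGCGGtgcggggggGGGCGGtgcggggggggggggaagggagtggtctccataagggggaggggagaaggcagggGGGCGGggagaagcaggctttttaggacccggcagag
Igfbp7: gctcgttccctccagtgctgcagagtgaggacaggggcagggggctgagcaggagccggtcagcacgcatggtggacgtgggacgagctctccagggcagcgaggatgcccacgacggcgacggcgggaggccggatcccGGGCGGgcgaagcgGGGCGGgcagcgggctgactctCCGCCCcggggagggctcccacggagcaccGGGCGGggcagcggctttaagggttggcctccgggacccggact
Igfbp5: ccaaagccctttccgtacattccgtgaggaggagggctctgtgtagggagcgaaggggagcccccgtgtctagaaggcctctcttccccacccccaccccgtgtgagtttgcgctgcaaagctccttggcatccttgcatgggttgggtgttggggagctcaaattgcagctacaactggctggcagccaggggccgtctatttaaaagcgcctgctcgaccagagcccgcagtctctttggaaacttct
Igfbp6: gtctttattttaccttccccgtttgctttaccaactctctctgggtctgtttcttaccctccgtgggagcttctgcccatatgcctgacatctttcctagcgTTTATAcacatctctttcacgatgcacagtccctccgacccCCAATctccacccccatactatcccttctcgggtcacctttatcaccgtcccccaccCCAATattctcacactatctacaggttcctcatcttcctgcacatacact

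The *Igfbp2* window held 3 GC boxes and the *Igfbp7* window 4, at GC contents of 67.2% and 74%. The *Igfbp5* window, with 58.8% GC, held none of the 3 motifs in these exact letters. The *Igfbp6* window, with 49.6% GC, held 2 CCAAT boxes. It also held 1 match to the TATA box letters, which lay on the opposite strand. Among 32851 windows of this length over all genes, the median GC content was 52.4%, and 32.7% held a GC box, 33.8% a CCAAT box and 12.4% a TATA box. Over the 14 windows of the 10 members, 6 held a GC box, 3 a CCAAT box and 2 a TATA box. The window of *Igf1*, also higher in CD34lo, held 0 GC boxes at 52.8% GC, and the 4 windows of *Igf2* held 2, 1, 0 and 0. *Igfbp2* has a further RefSeq start, whose window held none of these motifs. These matches describe the letters of the windows and were not tested against expression.

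*Igfbp2*, which encodes a binding protein abundant in fetal tissues and in serum, was detected at low counts in CD34hi fibroblasts. It had 34, 37 and 23 counts in the CD34hi and 7042, 3079 and 2817 counts in the CD34lo libraries. These were 0.760, 1.02 and 0.507 CPM against 130, 111 and 90.6 CPM. All CD34hi libraries were thus above the limit of 3 counts and far below all CD34lo libraries. The fitted level was 146-fold higher in CD34lo, with a 95% interval of the log2 fold change of -7.79 to -6.59 (edgeR BH-adjusted p = 1.45e-06). Among the genes tested, *Igfbp2* ranked 13 by its increase towards CD34lo. The 3 pools gave log2 ratios of -7.42, -6.76 and -7.48.

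*Igfbp7* (gene 29817, chromosome 5, 77349240 to 77408045, minus strand, 1213 bases of exon) encodes a secreted protein with low affinity for IGFs that is known from vessel walls. It had 161, 151 and 177 CPM in CD34hi and 941, 1080 and 799 CPM in CD34lo libraries, without overlap. The means were 163 ± 13.3 and 940 ± 140 CPM (SD, n = 3), a 5.76-fold higher level in CD34lo with a log2 fold change of -2.53 (SE 0.16, edgeR BH-adjusted p = 9.98e-06). All 3 pools had the same direction, with log2 ratios of -2.54, -2.84 and -2.17. Genes of pericytes, the cells that wrap small vessels, were also higher in CD34lo. All 4 pericyte markers passed (*Notch3*, *Cspg4*, *Mcam* and *Rgs5*), and their summed level was 7.43 to 12.1 CPM in CD34hi and 55.0 to 83.8 CPM in CD34lo libraries. Of 4 endothelial markers, *Pecam1* and *Cdh5* were higher in CD34lo, *Kdr* was higher in CD34hi and *Vwf* did not pass. Their summed level was 50.1 to 94.9 CPM in CD34hi and 33.3 to 55.2 CPM in CD34lo libraries. Most of the CD34hi sum was *Kdr*, at 33.9 to 70.9 CPM against 4.57 to 8.16 CPM in CD34lo libraries. The means of *Pecam1*, *Vwf* and *Cdh5* were 6.65, 6.32 and 3.03 CPM in CD34hi and 14.7, 14.5 and 7.4 CPM in CD34lo. The part of such cells in the levels of *Igfbp7* and of the other members was not tested. *Polr2b* overlaps *Igfbp7* on the opposite strand by 89 bases and had 11530 counts over all libraries against 126621 for *Igfbp7*.

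*Igfbp5* encodes a binding protein that associates with extracellular matrix and is known for its increase during involution of the mammary gland. It had 9354, 8374 and 7483 CPM in CD34hi and 638, 1054 and 608 CPM in CD34lo libraries. Every CD34hi library exceeded every CD34lo library, and the means were 8404 ± 936 and 767 ± 249 CPM (SD, n = 3). The level was 11-fold higher in CD34hi, with a log2 fold change of 3.45 (SE 0.26, edgeR BH-adjusted p = 2.27e-05). In CD34hi fibroblasts, *Igfbp5* ranked 7 of all genes by CPM and took 0.918%, 0.826% and 0.738% of all counts. In CD34lo fibroblasts it ranked 161 and took 0.066%, 0.102% and 0.0635% of all counts. *Igfbp5* is in the study's own lists of fibroblast and cluster markers, so that its choice is not independent of work on such cells.

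*Igfbp6* (gene 16012, chromosome 15, 102144186 to 102149512, plus strand, 1289 bases of exon) encodes a binding protein that prefers IGF2 to IGF1. It had 1527, 1855 and 1644 CPM in CD34hi and 402, 656 and 518 CPM in CD34lo libraries, without overlap. With means of 1675 ± 166 and 525 ± 127 CPM (SD, n = 3), it was 3.19-fold higher in CD34hi, at a log2 fold change of 1.67 (SE 0.20, edgeR BH-adjusted p = 0.00026). The log2 ratios within pools were 1.92, 1.5 and 1.67. The keratinocyte markers *Krtdap* and *Krt10* were also higher in CD34hi, with a summed level of 14.3 to 19.9 CPM in CD34hi and 3.6 to 7.12 CPM in CD34lo libraries, and that of 4 Schwann cell markers was 42.1 to 52.1 CPM in CD34hi and 20.8 to 26.8 CPM in CD34lo libraries. Their part in the levels of *Igfbp5* and *Igfbp6* was not tested.

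*Igfbp3* and *Igfbp4* did not pass the test. *Igfbp3* (gene 16009, chromosome 11, 7206086 to 7213923, minus strand, 2447 bases of exon) encodes the main carrier of IGFs in serum. It had 131, 176 and 301 CPM in CD34hi and 250, 437 and 419 CPM in CD34lo libraries, so that the CD34hi library of pool 3 exceeded the CD34lo library of pool 1. Both populations had their lowest level in pool 1. The log2 fold change of *Igfbp3* was -0.86 (SE 0.32, 95% interval -1.58 to -0.14, edgeR BH-adjusted p = 0.0635), and its sign was the same in all 3 pools (-0.94, -1.31 and -0.47). When the mouse pool was fitted as a replicate block, *Igfbp3* passed at -0.91 (edgeR BH-adjusted p = 0.00178). It also passed without pool 3 (-1.16, edgeR BH-adjusted p = 0.0333), without the CD34hi library of pool 3 (-1.26, edgeR BH-adjusted p = 0.00818) and without the CD34lo library of pool 1 (-1.05, edgeR BH-adjusted p = 0.0405). With all libraries and no block, *Igfbp3* passed in limma-voom (-0.93, limma-voom BH-adjusted p = 0.0459) and in DESeq2 (-0.86, DESeq2 BH-adjusted p = 0.0152). The same held in edgeR without the filter on low counts (-0.84, edgeR BH-adjusted p = 0.0466), but not with RLE or upper-quartile normalization. Over 17 alternatives the adjusted p ranged from 0.000689 to 0.321 and was under 0.05 in 8. *Igfbp4* (gene 16010, chromosome 11, 99041260 to 99052646, plus strand, 2069 bases of exon), whose product is known as an inhibitor of IGF action, had 796, 815 and 954 CPM in CD34hi and 1106, 908 and 935 CPM in CD34lo libraries, which overlapped. Its log2 fold change was -0.20 (SE 0.15, 95% interval -0.53 to 0.13, edgeR BH-adjusted p = 0.318).

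*Igfbp1*, the remaining classical binding protein gene and the neighbour of *Igfbp3* at 3539 bases, was not a member and was not tested. It had 0 counts in 5 libraries and 1 count in the CD34hi library of pool 3, under the limit of 3 counts.

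**Figure D2:**
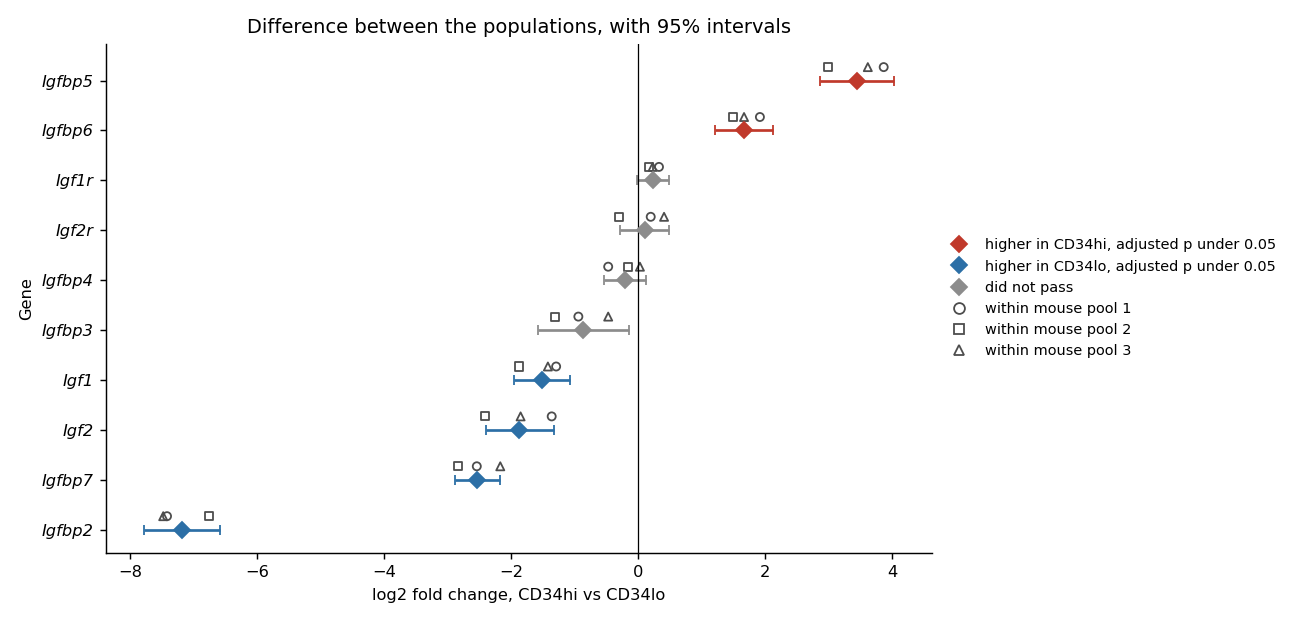
Difference between the populations for each gene, as log2 fold change of CD34hi vs CD34lo. Diamonds with bars are the edgeR estimates with 95% intervals (red, higher in CD34hi; blue, higher in CD34lo; grey, did not pass), and open symbols are the log2 ratios within the 3 mouse pools. The estimates run from -7.19 for *Igfbp2* to 3.45 for *Igfbp5*, and pools differ in sign for *Igf2r* and *Igfbp4*.

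Compared per length, the order of the members differed between the populations, although binding protein genes led it in both. In CD34hi fibroblasts, *Igfbp5* (1436 RPKM) and *Igfbp6* (1300 RPKM) stood highest, and their ranges of 1278 to 1598 and 1185 to 1439 RPKM overlapped. *Igfbp4* (413 RPKM), *Igfbp7* (134 RPKM) and *Igfbp3* (82.8 RPKM) followed without overlap. Below these came *Igf2r* (23.8 RPKM) and *Igf1* (17.7 RPKM), which overlapped each other, then *Igf1r* (7.49 RPKM). *Igf2* (0.743 RPKM) and *Igfbp2* (0.574 RPKM) were lowest and overlapped.

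In CD34lo fibroblasts, *Igfbp7* was highest at 775 RPKM (659 to 890). *Igfbp4* (475 RPKM) and *Igfbp6* (407 RPKM) came next and overlapped each other, and so did *Igfbp3* (151 RPKM) and *Igfbp5* (131 RPKM) after them. *Igfbp2* (83.0 RPKM), *Igf1* (50.5 RPKM), *Igf2r* (22.1 RPKM), *Igf1r* (6.33 RPKM) and *Igf2* (2.72 RPKM) followed, each apart from its neighbours. *Igfbp2* thus stood last of the members in CD34hi and above both ligand and both receptor genes in CD34lo. The ratio of *Igfbp5* to *Igfbp2* in RPKM was 2795, 1863 and 3352 in CD34hi and 1.12, 2.16 and 1.53 in CD34lo libraries.

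The makeup of the binding protein transcripts, taken as the share of each gene in their summed RPKM, also differed. *Igfbp5* held 47.6%, 41.3% and 38.9% of the sum in CD34hi libraries and 5.64%, 7.9% and 5.6% in CD34lo libraries. *Igfbp6* held 38.6% ± 3.14 in CD34hi and 20% ± 3.38 in CD34lo (SD, n = 3), so that these 2 genes made up most of the sum in every CD34hi library. *Igfbp7* held 3.96%, 3.6% and 4.45% in CD34hi and 40.2%, 39.1% and 35.5% in CD34lo libraries, and was the largest part of the sum in every CD34lo library. The share of *Igfbp4* was 12.3% ± 1.51 in CD34hi and 23.8% ± 4.24 in CD34lo, that of *Igfbp3* was 2.47% ± 1.13 and 7.45% ± 1.99, and that of *Igfbp2* was 0.0169% ± 0.00529 and 4.13% ± 0.805 (SD, n = 3). The populations did not overlap for any of the 6 shares. These shares depend on the exon lengths, and without division by length the mean share of *Igfbp6* was 14.9% in CD34hi and 14.1% in CD34lo. That of *Igfbp5* was then 74.2% in CD34hi and 20.4% in CD34lo, and in CD34lo the mean share of *Igfbp4* (27%) was above that of *Igfbp7* (25.4%).

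**Figure D3:**
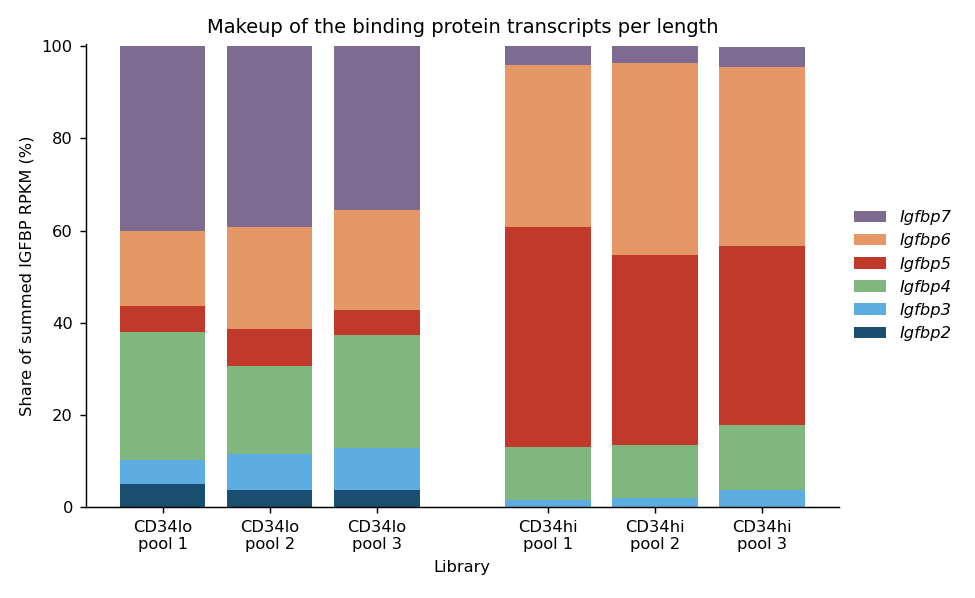
Share of each of the 6 binding protein genes in their summed RPKM, in percent, stacked for each library. *Igfbp5* (red) and *Igfbp6* (orange) fill most of each CD34hi bar, with means of 42.6% and 38.6%, and *Igfbp7* (violet) is the largest part of each CD34lo bar, with a mean of 38.2%.

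The summed level of the binding protein genes was 3354, 3460 and 3284 RPKM in CD34hi and 1932, 2279 and 1855 RPKM in CD34lo libraries, without overlap. Relative to this sum, *Igf1* was 0.517, 0.4 and 0.668 per 100 RPKM of binding protein transcripts in CD34hi and 2.2, 2.21 and 3.15 in CD34lo libraries. The means were 0.528 ± 0.134 and 2.52 ± 0.547 (SD, n = 3), and each CD34lo library was above all CD34hi libraries. Without *Igfbp7*, the protein of low affinity for IGFs, they were 0.551 ± 0.142 and 4.07 ± 0.713. These are ratios of transcripts, and protein was not analysed here.

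Genes that act on or below the members were followed in 4 lists of 46 genes, of which 42 were tested. Of these, 5 were higher in CD34hi and 11 were higher in CD34lo, or 38.1% in all beside the 35.6% of all tested genes, and their median log2 fold change was 0.01. When the mouse pool was fitted as a replicate block, 8 were higher in CD34hi and 12 in CD34lo, and the genes gained were *Pappa2*, *Stat5b*, *Tmem219* and *H19*. By list, the share of tested genes that passed ranged from 12.5% of the growth hormone response genes to 62.5% of the genes of IGFBP proteases and their inhibitors.

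Of the 8 genes of IGFBP proteases and their inhibitors, 2 were higher in CD34hi and 3 in CD34lo. *Pappa*, whose product cuts IGFBP4 and IGFBP5 and so frees bound IGF, had 1.86, 1.16 and 0.948 CPM in CD34hi and 15.0, 18.4 and 14.4 CPM in CD34lo libraries. It was higher in CD34lo in all 3 pools, with a log2 fold change of -3.58 (SE 0.26, edgeR BH-adjusted p = 2e-05). *Adam12*, which encodes a protease reported to cut IGFBP3 and IGFBP5, was also higher in CD34lo, at 37.0 against 339 CPM and a log2 fold change of -3.20 (SE 0.24, edgeR BH-adjusted p = 2.21e-05). *Stc1*, the gene of a PAPPA inhibitor, was higher in CD34lo as well (-0.95), but did not pass without pool 1, without pool 3, without the CD34hi library of pool 1 or without the CD34lo library of pool 3. In contrast, the protease genes *Htra3* (1331 against 508 CPM, log2 fold change 1.39, SE 0.21, edgeR BH-adjusted p = 0.00101) and *Adam9* (223 against 110 CPM, log2 fold change 1.01, SE 0.13, edgeR BH-adjusted p = 0.000407) were higher in CD34hi. *Htra1*, the gene of a related protease, had 914 CPM in CD34hi and 931 CPM in CD34lo and did not pass.

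Of the 8 growth hormone response genes, 1 passed. *Cish*, a STAT5 target that dampens cytokine signals, had means of 51.6 CPM in CD34hi and 114 CPM in CD34lo, a log2 fold change of -1.15 (SE 0.16, edgeR BH-adjusted p = 0.000707). *Ghr*, the growth hormone receptor gene, had 88.2, 113 and 164 CPM in CD34hi and 109, 138 and 148 CPM in CD34lo libraries, which overlapped. Its log2 fold change was -0.11 (SE 0.22, 95% interval -0.62 to 0.40, edgeR BH-adjusted p = 0.729). The other STAT5 pathway genes lay between -0.23 for *Stat5a* and 0.36 for *Stat5b*.

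Of the 20 signal transduction genes below IGF1R, 2 were higher in CD34hi and 7 in CD34lo. *Irs2*, the gene of a docking protein for the insulin and IGF1 receptors, had means of 196 CPM in CD34hi and 628 CPM in CD34lo, at a log2 fold change of -1.68 (SE 0.18, edgeR BH-adjusted p = 0.000138). Its relative *Irs1* had a log2 fold change of -0.29 and did not pass. *Grb10*, which encodes an adaptor that binds these receptors and restrains their signal, was higher in CD34hi, at 626 against 189 CPM and a log2 fold change of 1.73 (SE 0.13, edgeR BH-adjusted p = 2.79e-05). The related adaptor gene *Grb14* was higher in CD34lo but low in both, at 0.319 and 1.43 CPM (log2 fold change -2.12, SE 0.51, edgeR BH-adjusted p = 0.0117), and it did not pass without pool 2 or without pool 3. Of the genes of FOXO transcription factors, which insulin and IGF signals hold out of the nucleus, *Foxo1* was higher in CD34hi (93.9 against 43.7 CPM, log2 fold change 1.10, SE 0.13, edgeR BH-adjusted p = 0.000214) and *Foxo3* in CD34lo (26.0 against 66.3 CPM, log2 fold change -1.35, SE 0.18, edgeR BH-adjusted p = 0.000449). *Pik3cb* (-0.69) and *Pik3r1* (-0.56), genes of subunits of phosphoinositide 3-kinase, were also higher in CD34lo by less than 1 on the log2 scale. *Pik3cb* did not pass in any fit with a pool or library left out (edgeR BH-adjusted p of up to 0.238), and *Pik3r1* did not pass in 7 of the 17 alternatives, which left out each of the 3 pools, the CD34hi library of pool 1 or 2, or the CD34lo library of pool 2 or 3.

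The last list held 10 other genes related to IGF ligands, their transcripts, binding proteins or receptors, of which 6 were tested and 1 passed. This was *Igf2bp2*, the gene of an RNA-binding protein of *Igf2* transcripts, which was higher in CD34hi (log2 fold change 0.63) but did not pass without pool 1. *Insr*, the insulin receptor gene, had 63.3 ± 5.09 CPM in CD34hi and 62.6 ± 12.2 CPM in CD34lo fibroblasts (SD, n = 3), at a log2 fold change of 0.02 (SE 0.16, 95% interval -0.34 to 0.37, edgeR BH-adjusted p = 0.947). The genes *Igfbp1*, *Igfbpl1*, *Insrr* and *Igf2bp1* were under the filter, with at most 6 counts in any library.

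**Figure D4:**
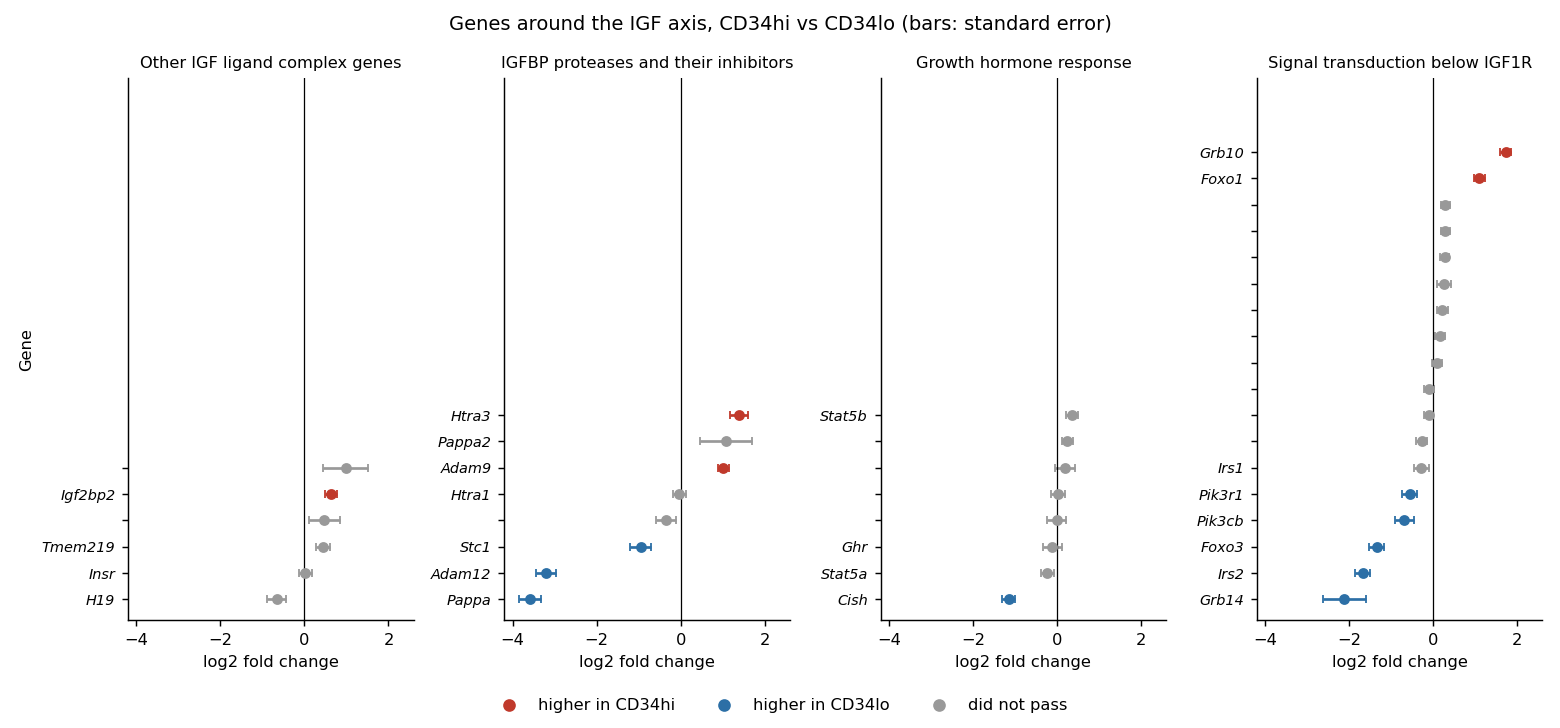
Log2 fold change of CD34hi vs CD34lo for 40 of the 42 tested genes of the 4 lists around the IGF axis, 1 panel per list, with SE as bars and with names for the genes given in the text (red, higher in CD34hi; blue, higher in CD34lo; grey, did not pass). The values run from -3.58 for *Pappa* to 1.73 for *Grb10*, and 5 genes are red and 9 are blue.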

How the data were processed

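Bulk RNA-seq libraries of polyA RNA from CD34hi and CD34lo fibroblasts were analysed, 3 of each. The deposited values are raw counts of reads per gene, which the authors obtained by aligning reads to GRCm38/mm10 and counting with Rsubread, without normalization or a filter. The annotation and the strand setting used for counting are not given in the sources used here. Gene positions and exon lengths are those of the deposited table. Symbols came from a RefSeq gene table, in which 25275 of 27179 identifiers matched and 1904 did not, and upstream sequences are from RefSeq (GRCm38.p6), where all 10 members matched.

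Genes were compared with edgeR 4.0.16 under R 4.3.3 (filterByExpr, TMM, quasi-likelihood test without the mouse pool, Benjamini-Hochberg adjustment over 15219 genes). Each SE was obtained by dividing the size of the log2 fold change by the square root of F. The steps were tested on simulated data. TMM factors were 0.967 to 1.04, and the common coefficient of variation was 19.7%. Replicate libraries differed by more than sampling noise (lowest chi-square 24 per degree of freedom).

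Libraries with the same number came from the same mice, and their deviations from the population means correlated across genes at 0.279, 0.0844 and 0.243 in pools 1 to 3. The reported fit has no block, since the study's methods name no term for the mouse pool and do not state the design, and the replicate block was an alternative, beside limma-voom (limma 3.58.1), DESeq2 1.42.0, RLE and upper-quartile normalization, other filters and thresholds, and leaving out each pool or library. Shares and ratios were also computed without division by length.

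All 10 members are named, and so is each gene of the 4 pathway lists that passed and differed by 1 or more on the log2 scale, *Ghr*, *Insr*, genes under the filter, and genes that overlap a member. Other genes of the lists were named after their values were seen. The totals include 2 genes that are not reported here. The members and lists were chosen with earlier results of these data known.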

Additional observations from a re-analysis of the deposited data

How the results depend on the processing

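The 6 members that passed did so under all 17 refits (other normalizations, filters and tools, the replicate block, and each pool or library left out). Of 170 comparisons of single members with their reported values, 160 kept their direction and their side of the threshold, 8 passed where the reported value did not, all of *Igfbp3*, and 2 changed sign. These were of *Igf2r*, at -0.0626 without pool 3 and -0.0383 without the CD34hi library of pool 3, within a range of -0.0626 to 0.322 over the fits with a pool or library left out. The number of members that passed was 6 or 7 in all settings, and 7 with the replicate block, which added *Igfbp3* and changed no other member's call. The replicate block gave 6161 genes in all and 20 pathway genes.

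Over all genes, 5411 passed, 3444 at an adjusted p under 0.01 and 2986 where a difference of at least 1 on the log2 scale was also required. With a pool or library left out, 3468 (without pool 1) to 5236 passed. Of the pathway genes, 16 passed, 10 at an adjusted p under 0.01 and 10 with that minimum difference, which keep fewer genes by construction, and 12 to 17 with a pool or library left out. The difference in *Igf1* per 100 RPKM of binding protein transcripts, CD34hi minus CD34lo, was -1.99, and -2.15 to -1.75 with a pool left out. It was -9.58 without division by length, which gives more weight to genes with long exons such as *Igf1*, and -3.52 without *Igfbp7*, an alternative chosen after seeing the data.

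Of the 10 pathway genes that passed with this minimum difference, 9 passed in all 17 refits, and *Grb14*, which the stricter filter did not keep, passed in 14 of 16. *Pik3cb*, *Pik3r1*, *Stc1* and *Igf2bp2* passed in 7, 10, 13 and 16 of 17, and the cause was not tested. With 23 to 37 counts of *Igfbp2* in the CD34hi libraries, counting error limits the size of its difference more than its direction.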
